A study of Mus musculus with 12 samples.

Results

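The genes examined were the metabotropic glutamate receptors Grm2, Grm3, Grm4, Grm5, Grm7 and Grm8, taken as every peak annotated to 1 of these 6 symbols in the 4 deposited peak lists. They held 890 of 250567 peaks, on 6 of 11356 genes with a peak in any list. The data come from adult forebrain of C57BL/6 mice, where Argonaute 2 (Ago2, the protein that carries microRNAs) was cross-linked to RNA by ultraviolet light, precipitated, and its small RNA ligated to the bound target. A chimeric read of this kind names both the small RNA and the place where it sat, and a peak is a place where such reads of 1 small RNA piled up.

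Of the 12 libraries, 3 were precipitated with anti-myc from forebrain in which a tagged Ago2 was switched on in excitatory neurons (excitatory list). Another 3 were anti-Ago2 precipitates of whole forebrain, replicates 5 to 7 (reps 5-7), and 4 were anti-Ago2 precipitates of whole forebrain, replicates 1 to 4 (reps 1-4). The remaining 2 used control immunoglobulin G (IgG). The tag came from a Rosa26 GFP/Eif2c2 line crossed to Camk2a-CreERT2, whose promoter is active in forebrain excitatory neurons, and Cre was activated with 2 mg tamoxifen on 5 days. Tissue was taken 14 to 21 days later from mice aged 10 to 12 weeks. Because this treatment is written for all 12 samples alike, it is unclear from the labels if the whole-forebrain and IgG animals had the tag too. Excitatory and whole-forebrain lists therefore differ in antibody, in the protein precipitated and in cell type, which cannot be told apart.

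Each list was called over pooled libraries and is a single observation, so intervals cover counting error only and replicate spread cannot be given. The excitatory list held 766 peaks, reps 5-7 held 3611, reps 1-4 held 246180 and IgG held 10. The calling summaries of the excitatory list and reps 5-7 name the same 3 library numbers, of unstated meaning, and reps 1-4 has none in common with either. The score of a peak is the authors' whole number, at least 3 in every list, with a median of 4 in the 3 Ago2 lists. Of the cell type marker lists reported, the excitatory list had 14 peaks on excitatory neuron markers, all on Camk2a, and 0 on inhibitory neuron, astrocyte, microglia and vascular markers. A further marker list, with peaks in all 3 Ago2 lists, is not reported here. Reps 5-7 had 25, 4, 35, 0 and 0 peaks on the marker lists of excitatory neurons, inhibitory neurons, astrocytes, microglia and vessels. Reps 1-4 had 607, 93, 893, 21 and 49 in the same order. Single genes led these counts, which come from lists of unlike size. Camk2a had 24 of the 25 excitatory marker peaks in reps 5-7 and 524 of the 607 in reps 1-4. Slc1a2 had 27 of the 35 astrocyte marker peaks in reps 5-7 and 716 of the 893 in reps 1-4. The part of cell make-up in the receptor values was not tested.

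Metabotropic glutamate receptors are G-protein-coupled receptors that adjust synaptic transmission on a slower time scale than the ionotropic glutamate receptors. Grm5 belongs to group I, which acts through Gq and phospholipase C and sits mostly on the postsynaptic side. Grm2 and Grm3 form group II, and Grm4, Grm7 and Grm8 belong to group III. Groups II and III act through Gi and Go to lower cyclic AMP, and group III receptors sit mostly at presynaptic terminals, Grm7 at the active zone. MicroRNAs pair with their targets mainly through the seed, bases 2 to 8, and repress messenger RNAs most often through sites in the 3' untranslated region (3' UTR).

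The microRNAs below are some of those that led the receptor genes by number of peaks or by score, or that lay on shared sites. The mature sequences are from RefSeq (GRCm38.p6, the same assembly as mm10), written 5' to 3' with the seed in capitals.
miR-9-5p: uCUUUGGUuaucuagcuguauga
miR-26a-5p: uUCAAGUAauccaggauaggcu
miR-128-3p: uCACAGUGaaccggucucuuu
miR-27b-3p: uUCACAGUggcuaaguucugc
miR-125b-5p: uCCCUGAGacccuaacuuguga
miR-22-3p: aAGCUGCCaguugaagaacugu
miR-181a-5p: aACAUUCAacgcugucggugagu
miR-181c-5p: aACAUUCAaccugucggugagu
miR-29a-3p: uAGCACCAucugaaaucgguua
miR-29b-3p: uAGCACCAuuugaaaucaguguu
miR-103-3p: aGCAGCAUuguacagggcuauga
miR-107-3p: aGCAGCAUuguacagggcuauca
miR-127-3p: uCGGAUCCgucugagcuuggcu
Of the 68 small RNAs with a peak on a receptor gene, 59 had a sequence in this table. The miR-181, miR-29 and miR-103/107 sets each share 1 seed. The seeds of miR-128-3p and miR-27b-3p differ, but bases 1 to 8 of miR-128-3p are the same letters as bases 2 to 9 of miR-27b-3p.

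The receptor genes had 2 peaks in the excitatory list, both on Grm5, and 4 in reps 5-7, of which 3 were on Grm5 and 1 on Grm7. They had 884 in reps 1-4, where all 6 genes were present, and 0 among the 10 peaks of IgG. A count of 0 of 10 allows a share of up to 30%, the share that 3 peaks would make. In reps 1-4, Grm7 had 474 peaks, Grm5 298, Grm3 49, Grm8 47, Grm2 11 and Grm4 5. The family's peaks are thus mostly those of Grm7 and Grm5, and values over all 884 peaks describe mainly these 2 genes.

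These genes differ much in length, from 11.6 kb for Grm2 to 922 kb for Grm7, so peaks were also counted per length of the RefSeq gene. Grm2 had 95 peaks per 100 kb (exact Poisson 95% interval 47.4 to 170), Grm5 54.1 (48.1 to 60.6) and Grm7 51.4 (46.9 to 56.3). The intervals of these 3 genes overlap, so their order is not settled. Grm3 followed with 20.4 peaks per 100 kb (15.1 to 27.0), below all 3. Grm4 had 5.47 (1.78 to 12.8) and Grm8 had 5.46 (4.02 to 7.27), which cannot be ordered and both lie below Grm3. Over the 10294 genes with a RefSeq entry, of 11352 with a peak in reps 1-4, the median was 22.6 peaks per 100 kb, with quartiles of 8.62 and 54.9. Grm2, Grm5 and Grm7 had intervals above that median, Grm4 and Grm8 intervals below it, and the interval of Grm3 included it. That median covers genes of all lengths, and a median for genes as short as Grm2 was not taken. Among the 206 genes of 500 kb or more, whose median was 13.6, Grm5 stood at rank 40, Grm7 at 44 and Grm8 at 149. A peak count reflects both how much of a transcript is present and how often it is bound, and transcript levels were not measured in these libraries.

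Introns held most of the peaks of the receptor genes. In reps 1-4, 795 of their 884 peaks, 89.9% (Wilson 95% interval 87.8 to 91.7), were intronic, against 47.6% of all peaks of the list. CDS held 4.30% against 22.6%, the 3' UTR 4.86% against 18.7%, and the 5' UTR 0.905% against 0.956%. Weighted by score the difference remained, with introns holding 79.0% of the summed score on the receptor genes, against 24.2% over all peaks. The values over all peaks also count peaks outside CDS, UTRs and introns, a class that the receptor genes lack. They therefore understate the intron share among like regions. The intron share was 96.8% in Grm7, 91.5% in Grm8, 86.9% in Grm5 and 65.3% in Grm3, while Grm2 had 0 intron peaks of 11 and Grm4 2 of 5. The genes in which introns dominate are the long ones, and the compact Grm2 had CDS and 3' UTR peaks only.

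Intron peaks were mostly weak. On the receptor genes 51.4% of intron peaks had the lowest score of 3 and 3.14% had a score of 10 or more, against 50.4% and 4.29% of intron peaks on all genes. Of the 89 CDS and UTR peaks of the receptors, 33.7% had a score of 3 and 22.5% a score of 10 or more, against 30.3% and 20.2% of those on all genes. In both regions the receptors' scores therefore spread much like those of other genes.

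Grm5, the group I receptor, carried the strongest peaks of the family, and these lay in its 3' UTR. In reps 1-4 its 298 peaks belonged to 40 small RNAs, and 259 were in introns, 12 in CDS, 2 in the 5' UTR and 25 in the 3' UTR. The 25 peaks of the 3' UTR had 445 of the gene's summed score of 1701. Positions here are counted from 1 at the first base of the annotated 3' UTR (chr7:88130871, plus strand), which ends at base 4037 in its long form and at base 784 in a short form.

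The highest score on any receptor gene was 93, for miR-124-3p, the abundant neuronal microRNA, at bases 199 to 214 of the Grm5 3' UTR (chr7:88131069-88131084). The next was 84, for miR-22-3p at bases 3612 to 3625, near the end of the long form (chr7:88134482-88134495). A second miR-124-3p peak with a score of 80 lay at bases 756 to 769 (chr7:88131626-88131639), still inside the short form. Set against other targets of the same small RNA in reps 1-4, the miR-22-3p peak stood at rank 19 of 1843, the miR-124-3p peaks at ranks 478 and 589 of 72138, and a miR-181a-5p peak with a score of 42 at rank 44 of 2936. These ranks place a peak only among the targets of its own small RNA.

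Peaks of microRNAs that share a seed lay on top of each other in the Grm5 3' UTR. The miR-181a-5p peak at bases 420 to 436 overlapped peaks of miR-181c-5p at 421 to 438 (score 14) and miR-181d-5p at 416 to 437 (score 3). Near the start of the UTR, miR-29a-3p at 145 to 151 (score 14) and miR-29b-3p at 134 to 158 (score 13) overlapped miR-29c-3p at 133 to 191 (score 3). A miR-9-5p peak at 153 to 180 (score 10) overlapped those of miR-29b-3p and miR-29c-3p. A miR-382-5p peak at 170 to 211 (score 3) overlapped those of miR-29c-3p, miR-9-5p and the strong miR-124-3p peak. Merged on the strand, these peaks near the start formed 1 site (chr7:88131003-88131084) with 6 small RNAs and a summed score of 136. Only the weak miR-382-5p peak joined the miR-124-3p peak to the rest. Toward the other end, miR-128-3p at 3420 to 3434 (score 13) overlapped miR-27b-3p at 3417 to 3435 (score 9), the pair that shares a run of 8 letters. How reads that fit more than 1 of these names were assigned by the authors is not given in the labels or file headers, so overlapping peaks of such names are not independent sites.

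The 3' UTR was thus occupied mainly at its ends. Between the miR-124-3p peak that ends at base 769 and a miR-138-5p peak that starts at base 3145, it had only 5 peaks, with scores of 4 to 6, for miR-137-3p, miR-22-3p, miR-9-5p and miR-124-3p. Over the whole UTR, miR-124-3p made 42.5% of the summed score with 4 peaks, miR-22-3p 19.8% and miR-181a-5p 9.44%. Outside the UTR, miR-124-3p also gave Grm5 a CDS peak with a score of 35 (chr7:87602841-87602847) and a 5' UTR peak with a score of 29 (chr7:87602437-87602449).

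**Figure D1:**
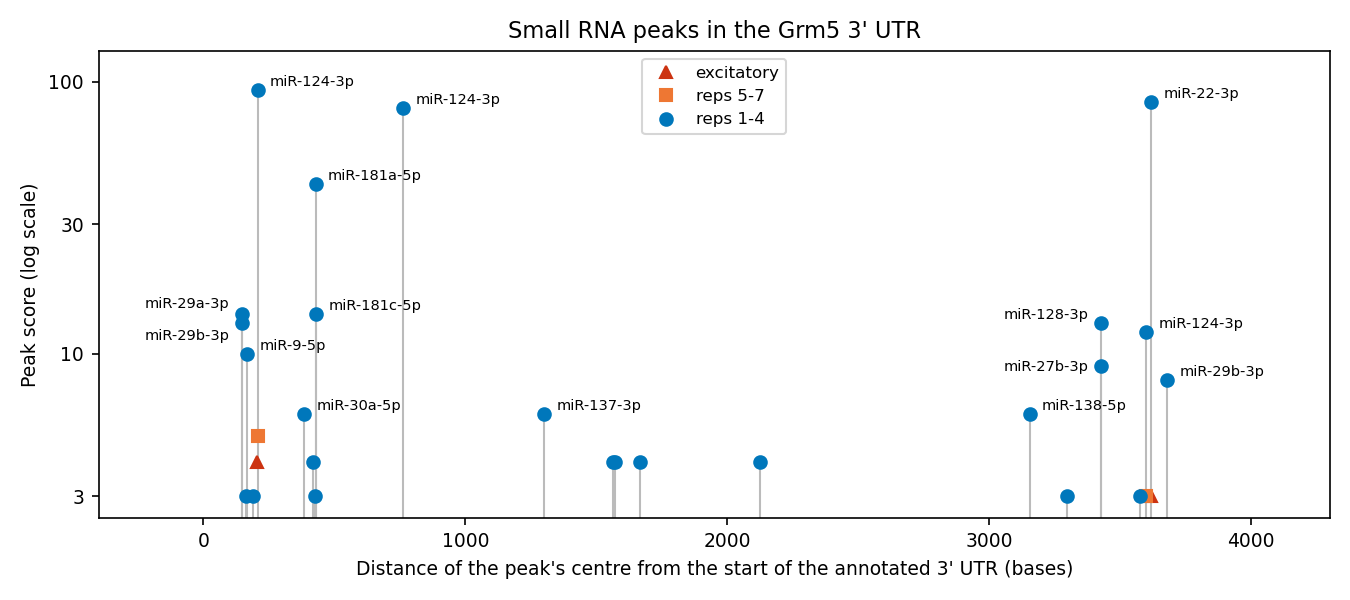
Peaks in the annotated 3' UTR of Grm5. The horizontal axis is the distance of the peak's centre from the start of the UTR in bases, the vertical axis the authors' score on a log scale, and symbols mark the excitatory, reps 5-7 and reps 1-4 lists. Names are given for reps 1-4 peaks with a score of 6 or more. The scores of 93, 80 and 84 stand near both ends, and the few peaks of the other lists lie at those ends.

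Both excitatory peaks and 2 of the 4 reps 5-7 peaks lay at the strong ends of this UTR. In the excitatory list, miR-124-3p had a peak at bases 197 to 215 with a score of 4, and miR-22-3p a peak at bases 3609 to 3629 with a score of 3. Both overlapped the peak of the same small RNA in reps 1-4, with scores there of 93 and 84. In reps 5-7, miR-124-3p had peaks at bases 198 to 216 (score 5) and 3581 to 3614 (score 3), which overlapped reps 1-4 peaks of miR-124-3p with scores of 93 and 12. The miR-124-3p place near the start of the UTR was thus found in all 3 Ago2 lists, the miR-22-3p place in the excitatory list and reps 1-4. The reps 5-7 peak at the far end also overlapped the miR-22-3p peak of reps 1-4.

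The other reps 5-7 peaks were intronic. A miR-125b-5p peak in Grm7 (chr6:110655405-110655417, score 3) overlapped a miR-125b-5p peak with a score of 3 in reps 1-4, and a miR-138-5p peak in Grm5 (chr7:87688859-87688909, score 4) overlapped no reps 1-4 peak. In all, 2 of 2 excitatory and 3 of 4 reps 5-7 receptor peaks were found again with the same small RNA in reps 1-4. The share found again over all peaks of these lists is not given here, so the counts cannot be read as particular to the receptors. Requiring that the overlap cover 50% of both peaks left 1 of 4 for reps 5-7.

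Of group II, Grm2, a presynaptic autoreceptor, had 11 peaks of 8 small RNAs in reps 1-4, 7 in its 3' UTR and 4 in CDS. Its strongest peak was miR-124-3p in CDS with a score of 15 (chr9:106647257-106647290), followed by miR-124-3p in the 3' UTR with 11 (chr9:106644485-106644495). That 3' UTR peak lies inside the annotated UTR of the deposited file but beyond the end of the RefSeq gene. A miR-103-3p peak with a score of 9 (chr9:106644984-106645004) and a miR-107-3p peak with a score of 8 (chr9:106644981-106645003) covered 1 place, and both carry the seed printed above. A miR-127-3p peak with a score of 3, whose seed differs, overlapped both. The miR-103-3p and miR-107-3p peaks stood at rank 112 of 805 and rank 37 of 205 peaks of their own small RNA. Peaks of miR-29b-3p (score 8) and miR-29a-3p (score 6) overlapped in the same way in CDS (chr9:106645422-106645439).

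Grm3, the other group II receptor, which astrocytes express as well as neurons, had 49 peaks of 17 small RNAs, with 32 in introns, 13 in CDS, 2 in the 5' UTR and 2 in the 3' UTR. Its leading small RNA by score was miR-9-5p, with a 5' UTR peak of 28 (chr5:9590123-9590141) and an intron peak of 25 (chr5:9707153-9707159), at ranks 846 and 977 of 26292 miR-9-5p peaks. A CDS peak of miR-127-3p followed with a score of 14 (chr5:9569972-9570000), at rank 242 of 2706. One coding exon of 1066 bases (chr5:9511459-9512524) held 9 of the 13 CDS peaks, from 6 small RNAs and none with a score above 4. The strong Grm3 peaks were thus outside the exon with the most peaks.

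Of group III, Grm7 had the most peaks and nearly all were weak intron peaks. It had 474 peaks of 50 small RNAs, with 459 in introns, 8 in CDS, 6 in the 3' UTR and 1 in the 5' UTR. Its strongest peak was nevertheless in the 3' UTR, a miR-128-3p peak with a score of 44 (chr6:111566726-111566744), at rank 160 of 12912 peaks of that microRNA. A miR-124-3p peak with a score of 15 (chr6:111566719-111566741) and a miR-9-5p peak with a score of 5 (chr6:111566723-111566746) covered the same bases. Its strongest intron peaks were miR-9-5p with 25 (chr6:110772085-110772101) and miR-124-3p with 17 (chr6:110673585-110673601). The intron site with the most different small RNAs (chr6:110687625-110687693) held miR-124-3p, miR-16-5p, miR-128-3p and miR-26a-5p with a summed score of 21.

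Grm8 had 47 peaks of 15 small RNAs, with 43 in introns, 3 in the 5' UTR, 1 in CDS and 0 in the 3' UTR. Its strongest peak was miR-26a-5p in the 5' UTR with a score of 23 (chr6:28126304-28126321), at rank 603 of 16976, then miR-127-3p in CDS with 12 (chr6:28126050-28126071), at rank 292 of 2706. The third was miR-26a-5p in an intron with a score of 9 (chr6:27863149-27863183). The 3 highest single peaks of Grm8 thus belonged to small RNAs other than miR-124-3p, whose 17 peaks had the highest summed score (61, against 51 for miR-26a-5p).

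Grm4, whose product is best known from cerebellar and striatal terminals, had 5 peaks of 3 small RNAs, with 3 in the 3' UTR and 2 in introns. They were miR-124-3p in the 3' UTR with a score of 5 (chr17:27425999-27426008), miR-29b-3p in the 3' UTR with a score of 4 (chr17:27426646-27426665), and 3 peaks with a score of 3, of which 2 were miR-124-3p and 1 let-7b-5p. No site of Grm4 or Grm8 held more than 1 small RNA. These scores lie at or near the lowest that the list admits.

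Intron peaks of Grm7, Grm3, Grm5 and Grm8 leaned toward the 5' end. In Grm7, 63.0% of the intron peaks lay in the first 25% of the gene's length, in Grm3 62.5%, in Grm5 49.0% and in Grm8 41.9%. Over the 787 genes of 200 kb or more the share was 43.1%, and over the 469 of them with at least 20 intron peaks the median gene had 45.9% (quartiles 26.1 and 60). Grm7 and Grm3 were at ranks 99 and 100 of these 469 genes, Grm5 at 207 and Grm8 at 256, so a 5' lean is common to long genes in this list. In Grm7, the first annotated intron (chr6:110646387-110703442) held 133 peaks in 57.1 kb, or 233 per 100 kb. In Grm5, the intron after the first coding exon (chr7:87603202-87772567) held 145 peaks in 169 kb, or 85.6 per 100 kb, while another of 83.7 kb (chr7:87891465-87975135) held 10, or 12.0 per 100 kb. Peak density thus differed several-fold between introns of 1 gene.

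**Figure D2:**
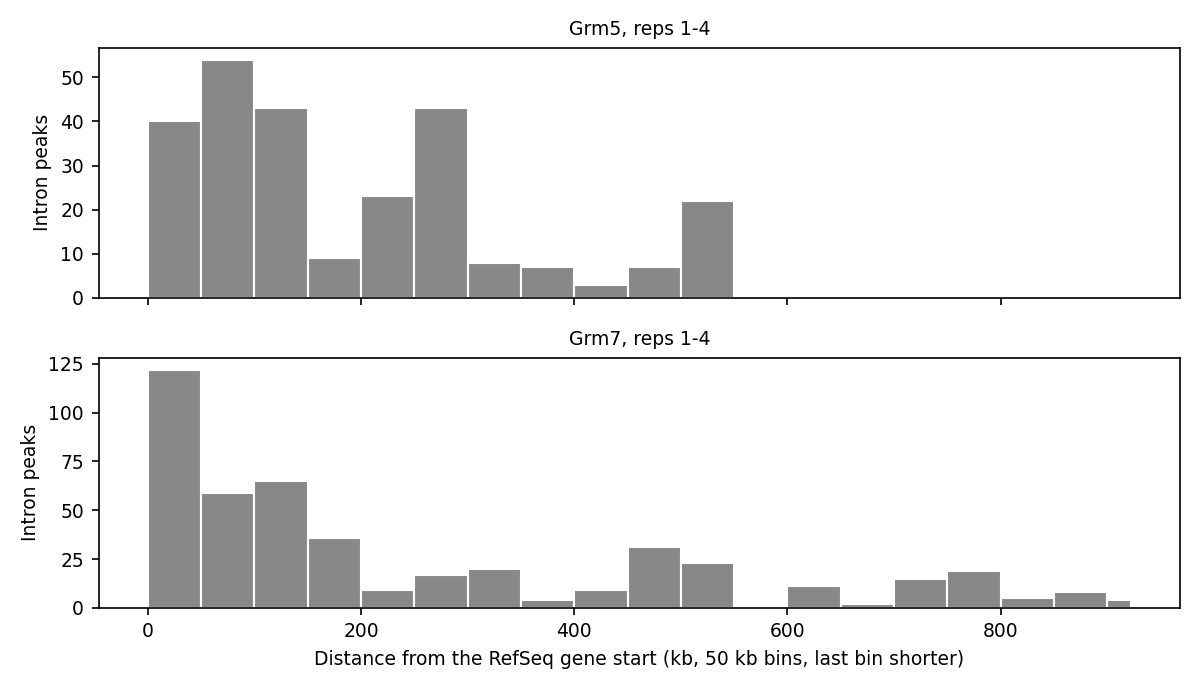
Intron peaks in reps 1-4 per 50 kb bin along Grm5 (top) and Grm7 (bottom), by distance from the RefSeq gene start in kb, the last bin of each gene being shorter. The first bin of Grm7 holds 122 peaks. Grm5 has 40, 54 and 43 peaks in its first 3 bins and 43 again from 250 to 300 kb.

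The small RNAs on the receptor genes were those most common in the list as a whole. In reps 1-4, miR-124-3p had 305 of the 884 peaks, 34.5% (Wilson 95% interval 31.4 to 37.7), against 29.3% of all peaks. It was followed by miR-9-5p with 14.3% against 10.7%, miR-26a-5p with 9.73% against 6.90%, miR-128-3p with 8.60% against 5.24% and miR-125b-5p with 4.98% against 4.43%. Since introns and exons differ in their small RNAs, the shares were also taken within each region. Among intron peaks miR-124-3p had 35.3% (32.1 to 38.7) on the receptors, against 37.7% on all genes, and among CDS and UTR peaks 27.0% (18.8 to 37.0), against 21.1%. Both intervals include the value of all genes, so within regions no difference of miR-124-3p from other genes was detectable. For miR-9-5p the intron share was 14.6% (12.3 to 17.2) on the receptors, against 11.5% on all genes. It was 17.0% (12.9 to 22.0) in Grm5 and 12.9% (10.1 to 16.2) in Grm7, the latter interval including the value of all genes. For miR-128-3p the intron share was 8.68% (6.92 to 10.8) on the receptors, against 5.61% on all genes. The miR-128-3p excess lay in Grm7, where miR-128-3p had 53 intron peaks, 11.5% of them, whereas Grm5 had 13, 5.02% of its intron peaks. In the other direction, miR-29a-3p had 1.13% (0.597 to 2.14) of the intron peaks on the receptors, against 3.24% on all genes. Among CDS and UTR peaks it had 4.49% (1.76 to 11.0), against 4.20%.

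**Figure D3:**
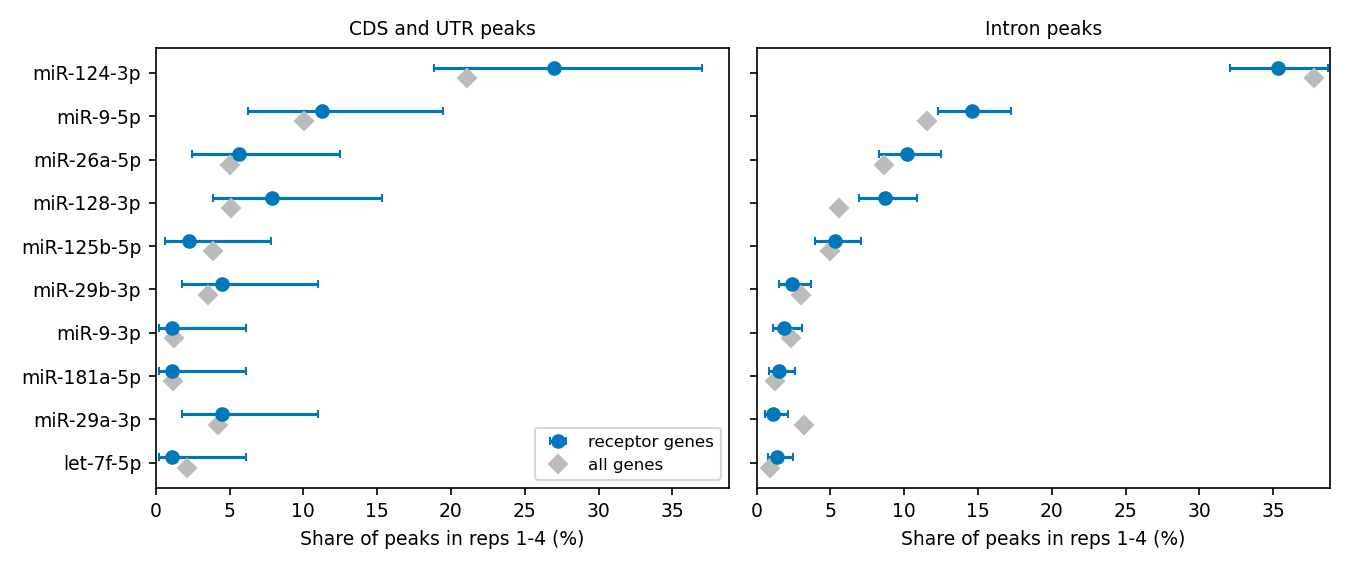
Share of reps 1-4 peaks (%) that belong to each of the 10 small RNAs with the most receptor peaks, in CDS and UTR (left) and in introns (right). Circles with Wilson 95% intervals are the 6 receptor genes, diamonds are all genes. For miR-124-3p the intervals include the value of all genes in both panels. In introns the intervals of miR-9-5p and miR-128-3p lie above the value of all genes, and that of miR-29a-3p lies below it.

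Gene by gene, miR-124-3p was the most frequent small RNA on every receptor. It had 165 peaks on Grm7 (34.8%), 99 on Grm5 (33.2%), 18 on Grm3 (36.7%), 17 on Grm8 (36.2%), and 3 each on Grm2 and Grm4. The next on Grm7 were miR-9-5p with 62 peaks, miR-128-3p with 55, miR-26a-5p with 42 and miR-125b-5p with 28. On Grm5 they were miR-9-5p with 48, miR-26a-5p with 34, miR-128-3p with 15 and miR-125b-5p with 12. On Grm8 the second was miR-26a-5p with 8 peaks and on Grm3 miR-9-5p with 10. The 2 genes with the most peaks thus had the same 5 leading names. The share of miR-128-3p was 11.6% on Grm7 (9.02 to 14.8) and 5.03% on Grm5 (3.07 to 8.14), intervals that do not overlap.

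Of the 68 small RNAs in reps 1-4, 33 had peaks on 1 receptor gene and 18 on 2. Only miR-124-3p had peaks on all 6 and only miR-29a-3p and miR-29b-3p on 5. Counted by seed among the small RNAs with a sequence used here, the miR-29 set, known for targeting matrix and DNA methylation genes, also reached all 6 with 44 peaks. On the same basis the let-7 set had 33 peaks and the miR-181 set 19. Grm5 and Grm7 shared 25 small RNAs, which is 62.5% of the 40 on Grm5 and 50% of the 50 on Grm7. The overlap between other pairs of genes is not given here, so this sharing cannot be read as particular to the receptors. Sites with more than 1 small RNA made up 16.2% (9.28 to 26.7) of the CDS and UTR sites on the receptors, against 24.4% on all genes, and 7.29% (5.62 to 9.41) of the intron sites, against 8.56%. Of 110 overlapping pairs of peaks on the receptors, 23 shared a seed, 50 did not, and 37 had a member with no sequence used here.

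The pattern of small RNAs on Grm5 and Grm7 was set beside that of all 809 genes with at least 50 peaks in reps 1-4. The measure was Pearson's r over the 30 most frequent small RNAs of the gene's share minus the share over all peaks, which is a description over small RNAs of 1 pooled list. For Grm5 the most alike were Adgrl3, an adhesion receptor (r = 0.88), Lingo2, a leucine-rich repeat membrane protein (0.88), and Mgat4c, a glycosyltransferase (0.86), with a median of 0.12 over the genes. For Grm7 they were Tenm2, a teneurin (0.93), Frmd5, a FERM domain protein (0.85), and Dgki, a diacylglycerol kinase (0.81), with a median of 0.15. Grm5 and Grm7 themselves had r = 0.52. Grm3, with 49 peaks, fell just under the minimum.

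The design sets excitatory neurons beside whole forebrain, and the 2 sets of whole-forebrain replicates beside each other. The receptors made up 0.261% of excitatory peaks (Wilson 95% interval 0.0716 to 0.947), 0.111% of reps 5-7 peaks (0.0431 to 0.284) and 0.359% of reps 1-4 peaks (0.336 to 0.384). Among CDS and UTR peaks they made up 2 of 582 in the excitatory list (0.344%, 0.0943 to 1.24), 2 of 2383 in reps 5-7 (0.0839%, 0.0230 to 0.306) and 89 of 103963 in reps 1-4 (0.0856%, 0.0696 to 0.105). Over all peaks the interval of reps 5-7 lies below that of reps 1-4, and over CDS and UTR peaks the shares of these 2 lists overlap closely. The list of reps 1-4 differs from the others in the share of introns, which held 47.6% of all its peaks and 218 of the 3611 peaks in reps 5-7. Among intron peaks the receptors made up 2 of 218 in reps 5-7 (0.917%, 0.252 to 3.28) and 795 of 117113 in reps 1-4 (0.679%, 0.633 to 0.728), intervals that overlap. The excitatory list had 31 intron peaks in all, none on a receptor gene. Its interval overlapped those of both forebrain lists, over all peaks and over CDS and UTR peaks, and rests on 2 receptor peaks.

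**Figure D4:**
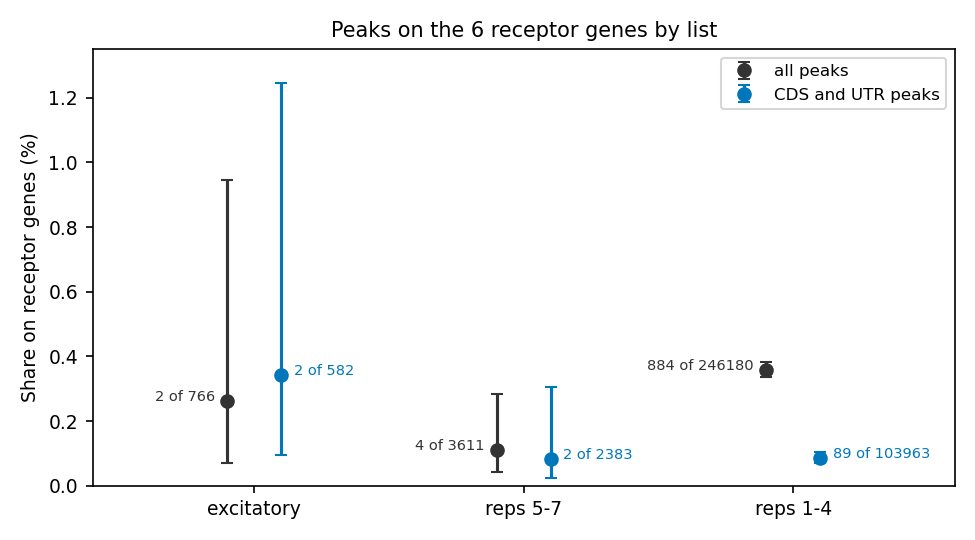
Share of each list's peaks that lie on the 6 receptor genes (%), for all peaks and for CDS and UTR peaks, with Wilson 95% intervals and the counts. The excitatory intervals are the widest. Over all peaks the excitatory interval includes the values of both forebrain lists, and over CDS and UTR peaks it starts at 0.0943%, just above them. Over all peaks reps 5-7 lie below reps 1-4, and over CDS and UTR peaks the 2 are at 0.0839% and 0.0856%.

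Single genes were tested with Fisher's exact test, two-sided, of a gene's peaks against all other peaks of the 2 lists, with Benjamini-Hochberg adjustment over all genes with at least 10 peaks in both lists together. Grm4 fell under that minimum. Between the excitatory list and reps 1-4, 0 of the 5 receptors tested were called, against 11 of 4103 genes (0.268%), and 0 had an unadjusted p under 0.05. Grm5 had 2 peaks in the excitatory list (0.261%) and 298 in reps 1-4 (0.121%), an odds ratio of 2.16 (0.260 to 7.90) with an adjusted p of 1 by Fisher's exact test. Grm7 had 0 peaks in the excitatory list, where its share in reps 1-4 would give 1.47, so a lower share was not detectable at this depth. Grm2, Grm3 and Grm8 also had 0 there, where their shares in reps 1-4 would give 0.0342, 0.152 and 0.146. They reached the minimum through their reps 1-4 peaks alone, so for them too a lower share was not detectable. Between the excitatory list and reps 5-7, no receptor reached 10 peaks, and 7 of 32 genes (21.9%) were called.

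Between reps 5-7 and reps 1-4, 0 of 5 receptors were called, against 55 of 4132 genes (1.33%), and 1 had an unadjusted p under 0.05. This was Grm7, with 1 peak in reps 5-7 (0.0277%) and 474 in reps 1-4 (0.193%), an odds ratio of 0.144 (0.00363 to 0.804), p = 0.0183 and adjusted p = 0.441 by Fisher's exact test. The Grm7 peak of reps 5-7 and 459 of the 474 in reps 1-4 were intronic, and the 2 lists differ in their share of introns. A difference of Grm7 within introns was not tested. Grm5 had 3 peaks in reps 5-7 (0.0831%) and 298 in reps 1-4 (0.121%), an odds ratio of 0.686 (0.141 to 2.03) and an adjusted p of 1 by the same exact test. Grm2, Grm3 and Grm8 had 0 peaks in reps 5-7, where their shares in reps 1-4 would give 0.161, 0.719 and 0.689. These genes reached the minimum through their reps 1-4 peaks alone, and a lower share of them in reps 5-7 was not detectable. Otherwise, with counts this small, the tests could show only large differences for any receptor gene.

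Genes that work with these receptors were counted from 4 lists. Of the 14 genes of the Gq pathway, 1 had a peak in the excitatory list, 5 in reps 5-7 and 12 in reps 1-4. The reps 1-4 peaks numbered 1285, led by Plcb1, a phospholipase C (574), Prkcb, a protein kinase C (219), and Gnaq, the Gq alpha subunit (129). Of the 20 genes of the Gi and Go pathway, 3, 6 and 20 had a peak in the excitatory, reps 5-7 and reps 1-4 lists, the last with 1034 peaks, led by Gnao1, the Go alpha subunit (215), Adcy1, an adenylyl cyclase (200), and Kcnj3, a potassium channel opened by G proteins (137). Both pathways were thus widely represented in reps 1-4.

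Of 16 scaffold and partner genes, 2 had a peak in the excitatory list, 5 in reps 5-7 and 14 in reps 1-4. The reps 1-4 peaks numbered 1409, led by the postsynaptic scaffolds Dlgap2 (395), Dlgap1 (297) and Shank1 (136). Of 16 ionotropic glutamate receptor genes, 4 had a peak in the excitatory list, 5 in reps 5-7 and 15 in reps 1-4. Their reps 1-4 peaks numbered 1665, led by the NMDA receptor subunits Grin2b (454) and Grin2a (310) and the kainate receptor subunit Grik2 (257). Against reps 1-4, 0 of the 9, 15, 12 and 12 genes tested on these 4 lists were called for the excitatory list and likewise 0 for reps 5-7. Of all genes tested, 0.268% and 1.33% were called, so counts of 0 on lists of this size are near the background.

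Introns held 89.9% of the peaks on the metabotropic receptors, against 73.5% on the Gq pathway, 49.3% on the Gi and Go pathway, 60.3% on the partners and 76.5% on the ionotropic receptors. Single genes of these lists spread widely, from 3% of peaks in introns for Adcy1 and 4.41% for Shank1 to 97.7% for Dlgap2 and 96.9% for Grik2. Grm7 at 96.8% and Grm2 at 0% span about the same range.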

How the data were processed

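Chimeric small RNA and target reads were sequenced from 12 libraries of mouse forebrain with paired 150 base reads, per the labels' protocols. Depth is stated there only as a range over all samples, so the precision of each value follows from its number of peaks. Per the file headers of the calling summaries, the authors pooled the libraries of a group before calling peaks on mm10, and kept peaks with 3 or more reads in 2 or more libraries. The submitters' processing notes name mm10 as well. Both caller and aligner were not given in the sources used here. A peak's deposited score is a whole number by the authors, of unstated definition and unscaled for library size. Reads were amplified without molecular identifiers.

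Genes and regions follow the deposited annotation. Lists were compared per gene by Fisher's exact test (scipy 1.17.1, tested on simulated data) with Benjamini-Hochberg adjustment over genes with 10 or more peaks and a threshold of 0.05, which compares lists, not conditions. Shares have Wilson and counts exact Poisson 95% intervals. A peak was found again where the same small RNA overlapped it on the same strand by 1 base or more. Gene lengths and microRNA sequences are from RefSeq.

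Named were, per gene, the 3 highest-scoring peaks and all peaks of the smaller lists, and for Grm5 and Grm7 the 3 most alike genes. Up to 5 small RNAs with the most peaks were named per gene, but not all 5 for Grm3 and Grm8. The site with the most small RNAs was named too, except for Grm3. Of each list of genes that work with the receptors, the 3 leading genes were named. Other peaks, among them those of the Grm5 3' UTR, were named after their values were seen. One of the 6 cell type marker lists, with peaks in all 3 Ago2 lists, is not reported here. The receptor genes and gene lists were chosen with earlier results of these data known.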

Additional observations from a re-analysis of the deposited data

How the results depend on the processing

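No paired analysis was possible because the libraries of a group were pooled before peaks were called and the lists carry no replicate numbers. Leaving out a replicate was not possible for the same reason. No receptor gene was called in the 71 tests run over the settings (lowest adjusted p 0.441 by Fisher's exact test), and none was tested with the larger list reduced. In every setting Grm2, Grm3, Grm4 and Grm8 had 0 peaks in the smaller list, so their tests could not detect a lower share. The other tests were of Grm5 and Grm7, with at most 3 peaks in the smaller list, and reused overlapping peaks. The number of tests is thus no measure of robustness. The intron share of the receptor peaks in reps 1-4, 89.9%, was 86.7% for peaks at or above the median score and 79.0% for summed scores. It stayed above that of all peaks by score (24.2%), which also counts peaks outside CDS, UTRs and introns. The miR-124-3p share, 34.5%, was 40.2% among peaks that reach the median score and 27.0% for CDS and UTR peaks. The receptors' share of peaks in reps 5-7 minus reps 1-4, -0.248 percentage points, was -0.00168 for CDS and UTR peaks and 0.0277 when reps 1-4 was limited to its best 3611 peaks by score (4 against 3 receptor peaks). For Grm5 alone this difference, -0.0380, turned to 0.0464 for CDS and UTR peaks. The excitatory share minus that of reps 1-4, -0.0980, was 0.258 for CDS and UTR peaks. For Grm5 alone it was 0.306 for CDS and UTR peaks, against 0.140 for all peaks (adjusted p of 1 by Fisher's exact test in both). Genes called over the whole lists varied most. For reps 5-7 minus reps 1-4 they numbered 55, and 0 for CDS and UTR peaks, 21 at or above the median score, 3 with the larger list reduced and 35 with no minimum number of peaks. For the excitatory list minus reps 1-4 they numbered 11, and 4 for CDS and UTR peaks and 3 with the larger list reduced. For the excitatory list minus reps 5-7 they numbered 7, and 0 for CDS and UTR peaks, without rRNA peaks or with no minimum, 1 at or above the median score, with peaks merged into sites or with a minimum of 5, and 4 with the larger list reduced. The settings that keep fewer peaks also test fewer genes, whereas a lower minimum of peaks per gene keeps all peaks and tests more genes. The cause of the changes in the number called was not tested. With a reciprocal overlap of 50%, the reps 5-7 peaks found again fell to 25%, against 75% with 1 base. The search for seed matches at the peaks and the merging of microRNAs by seed for the miR-124-3p share were not run. The number of peaks limits every comparison with the excitatory, reps 5-7 and IgG lists, which held 2, 4 and 0 receptor peaks.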
